A study of Rattus norvegicus with 7 samples.

Results

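The miR-130 and miR-301 seed family groups 4 miRNAs of the rat array used here, rno-miR-130a, rno-miR-130b, rno-miR-301a and rno-miR-301b, out of 677 rat miRNAs with features on it. The family was chosen on the age difference that rno-miR-130b shows on these same arrays, and its other members entered by their shared seed. The values of rno-miR-130b between the ages are therefore a description with no test, whereas those of rno-miR-130a and rno-miR-301a were tested. Members were matched by name in the scanner output, and their opposite-strand (star) forms were kept apart.

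Pancreatic islets had been isolated by collagenase digestion from male Wistar rats, 4 of them aged 12 months (replicates 2, 4, 10 and 16) and 3 aged 3 months (replicates 9, 11 and 13). Neither age carried a transgene or received a treatment according to the labels, and the ages were the only groups compared. RNA of each sample was labelled with Cy3 and hybridised to an Agilent single-colour miRNA array, on which several probes read each miRNA. The study's notes count 4 and 3 rats, and each array was taken as 1 rat.

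MiRNAs are short RNAs that guide Argonaute proteins to mRNAs and lower their translation and stability. Recognition rests mainly on the seed, the stretch near the 5′ end of the miRNA, so miRNAs with the same seed have largely the same predicted targets whatever the rest of their sequence. The miR-130 and miR-301 family is conserved among vertebrates and is known for repressing Pparg, the nuclear receptor that drives adipocyte differentiation, and for its role in the pulmonary vasculature. Islets hold insulin-secreting beta cells and other endocrine cells, threaded by capillaries, and preparations can carry exocrine acinar cells along.

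The mature sequences are shown because they set what the members share and where they part. They come from RefSeq (GRCr8), are written 5′ to 3′, and capitals mark the seed, bases 2 to 8. Of the 4 members 3 had a mature 3p sequence in the table. That of miR-301a was missing, so its seed could not be compared here. The unstarred array names were taken as the 3p strand.

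rno-miR-130a-3p: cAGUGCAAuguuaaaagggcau
rno-miR-130b-3p: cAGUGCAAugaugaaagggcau
rno-miR-301b-3p: cAGUGCAAugguauugucaaagc

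These 3 miRNAs carried the same seed, and no other of the 724 mature rat sequences in the table did. Counted from the 5′ end, rno-miR-130a-3p and rno-miR-130b-3p were identical at 20 of 22 positions (90.9%), and the differences were U11A and A13G, with the base of rno-miR-130a-3p first. rno-miR-301b-3p matched rno-miR-130b-3p at 12 of 22 positions and rno-miR-130a-3p at 13 of 22. For all 3 pairs the differences began at position 11, so these members differed only past the seed. In GRCr8 rno-miR-130a-3p lies at chr3:90229240-90229261 on the minus strand. rno-miR-301b-3p (chr11:97384077-97384099) and rno-miR-130b-3p (chr11:97384430-97384451) lie next to each other on the plus strand, with no annotated gene between their precursors and both inside the span of 2610318N02Rikl. Mir301a lies on chromosome 10 inside the spans of Prr11 and Ska2, and the neighbours of Mir130a are Ypel4 and LOC120101953.

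A further pair of miRNAs on the array, miR-148b-3p and miR-152, holds the seed letters of the family moved by 1 base. They are shown for that shift, with the hexamer AGUGCA at position 3 where the family has it at position 2, and capitals again mark bases 2 to 8.

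rno-miR-148b-3p: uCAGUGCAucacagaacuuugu
rno-miR-152-3p: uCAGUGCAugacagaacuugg

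They lie at chr7:136299930-136299951 and chr10:82329435-82329455, both on the plus strand of GRCr8.

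Each array held 14255 spots and none was saturated. Between 278 and 296 miRNAs were called detected per array at 12 months and between 246 and 272 at 3 months. The arrays of the older rats were brighter throughout, with a 75th percentile of the total gene signal of 67.0 to 73.8 units against 37.4 to 55.4 units. The total gene signal is the background-subtracted brightness summed over the probes of a miRNA, in the scanner's linear units. The tests cover 272 miRNAs, each called detected by all arrays of 1 age or of both. Their median log2 difference, 12 months minus 3 months, was 0.79 before normalisation and 0.06 after quantile normalisation. Changes before normalisation are therefore to be read against 0.79, and normalised ones against 0.06. All arrays lay on 1 slide in 2 rows, with both ages in each row. The number of arrays limits the precision, and since probes differ in brightness no miRNA's level is set against another's.

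miR-130b was the member that stood apart by age. Its total gene signal at 12 months was 6.74 units in replicate 2, 4.15 in replicate 4, 6.19 in replicate 10 and 8.14 in replicate 16. At 3 months it was 33.2 units in replicate 9, 31.0 in replicate 11 and 25.3 in replicate 13. Every older rat lay below every younger one, and the gap between the ages was wider than the range of either. The older rats averaged 6.30 ± 1.65 units (SD, n = 4) and the younger rats 29.8 ± 4.06 (SD, n = 3). None of the 4 arrays at 12 months called it detected and all 3 arrays at 3 months did. It was the only one of the 677 miRNAs with that pattern (0.148%), while 5 showed the reverse, namely miR-124, miR-142-5p, miR-24-2*, miR-30c-1* and miR-488.

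After normalisation miR-130b averaged 2.28 ± 0.55 on the log2 scale in the older rats (SD, n = 4) and 5.27 ± 0.24 in the younger ones (SD, n = 3), a difference of -2.99. Since no array at 12 months detected it, its fold change is a bound. The mean of the younger rats was set against a limit on each older array, 3 times the error of the total signal of miR-130b, which lay above its own signal on all 4. On that basis miR-130b was at least 5.08-fold lower at 12 months after normalisation and at least 3.16-fold lower before it. The mean of the younger rats was taken as measured, so the bound holds only for this processing. The deposited values and normexp, given below, put the difference under the normalised bound. Leaving out 1 array at a time kept the normalised bound between 4.69-fold and 5.50-fold. With the lowest detected signal of any miRNA as the limit, or the signal of miR-130b where higher, the ratios were 7.51 and 4.63, but on 3 of the 4 older arrays that limit lay below the signal of miR-130b itself, so they stand close to the measured differences. Before normalisation the measured difference was -2.27, against the general shift of 0.79 in the opposite direction. Of the 272 miRNAs 26 (9.56%), miR-130b included, were lower on every older array than on every younger one after normalisation. The deposited values, already quantile normalised on the log2 scale, were 4.05, 3.69, 3.97 and 3.99 for replicates 2, 4, 10 and 16 at 12 months. For replicates 9, 11 and 13 at 3 months they were 5.79, 5.42 and 5.66. The ages did not overlap there either, but the difference was smaller, at -1.70. It was -0.74 with normexp run on the median spot signal with an offset of 16, a setting that changes the spot summary and compresses low signals as well as correcting the background.

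**Figure D1:**
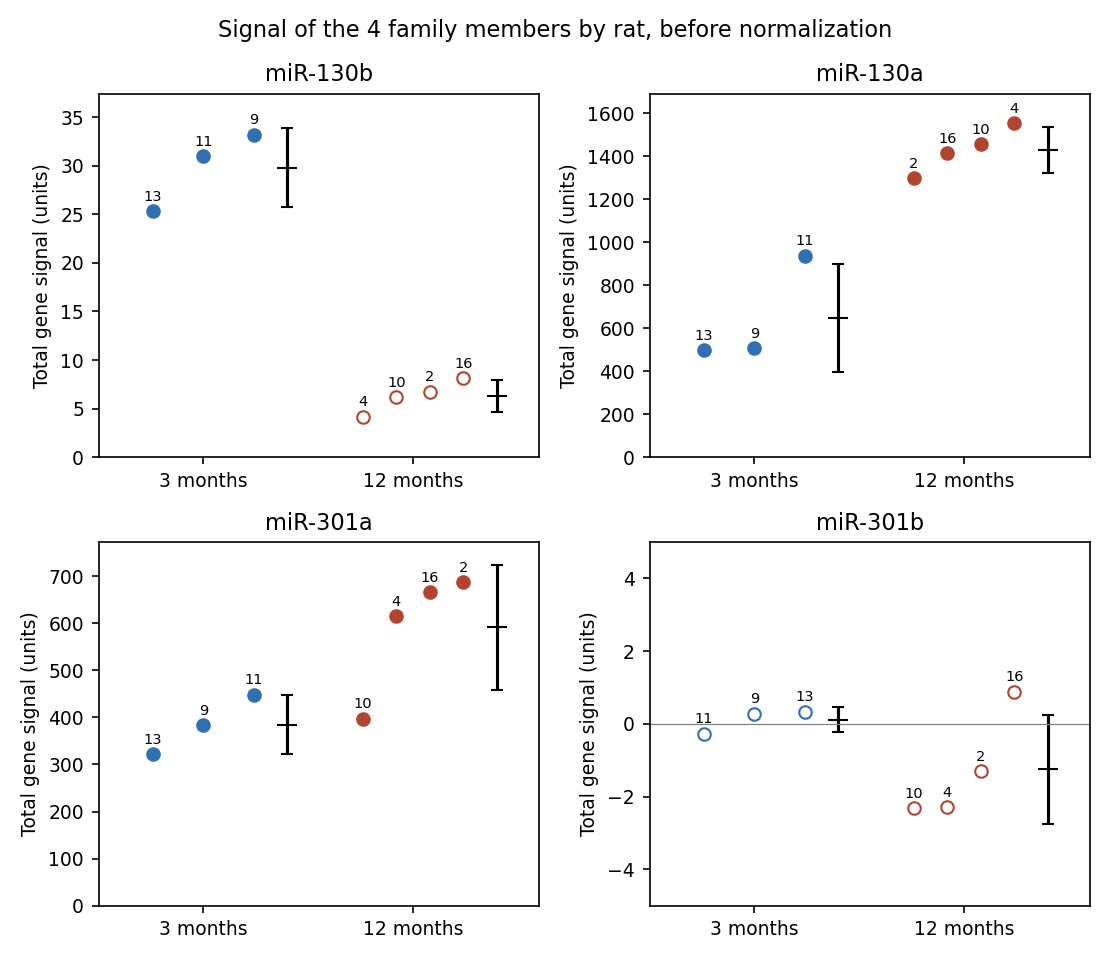
Total gene signal in scanner units before normalisation (y axis, linear, a scale of its own in each panel) of the 4 family members by age. Each point is 1 rat with its replicate number, filled where the miRNA was called detected, and bars give the mean ± SD. miR-130b lies at 25.3 to 33.2 units at 3 months and at 4.15 to 8.14 at 12 months, miR-130a is higher in every older rat on this scale, miR-301a overlaps between ages and miR-301b lies around 0.

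Both probes of miR-130b, each printed in 10 spots, carried the difference. The first read 1.72, 0.688, 1.86 and 2.50 units in replicates 2, 4, 10 and 16 at 12 months and 11.4, 11.05 and 8.87 in replicates 9, 11 and 13 at 3 months. The second read 5.03, 3.46, 4.32 and 5.64 units in the same older rats and 21.7, 19.9 and 16.4 in the younger ones. For either probe the ages did not overlap.

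On all 7 arrays, the miRNAs called detected were those with at least 1 probe whose signal exceeded 3 times its own error. The higher ratio of miR-130b to its error at 12 months was 2.07 in replicate 2, 1.56 in replicate 4, 1.91 in replicate 10 and 2.79 in replicate 16. At 3 months it was 7.12, 7.15 and 5.64 in replicates 9, 11 and 13. The older rats thus lay below the limit but not at 0, with replicate 16 nearest to it, so that its signal there was not told apart from background by the software.

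**Figure D2:**
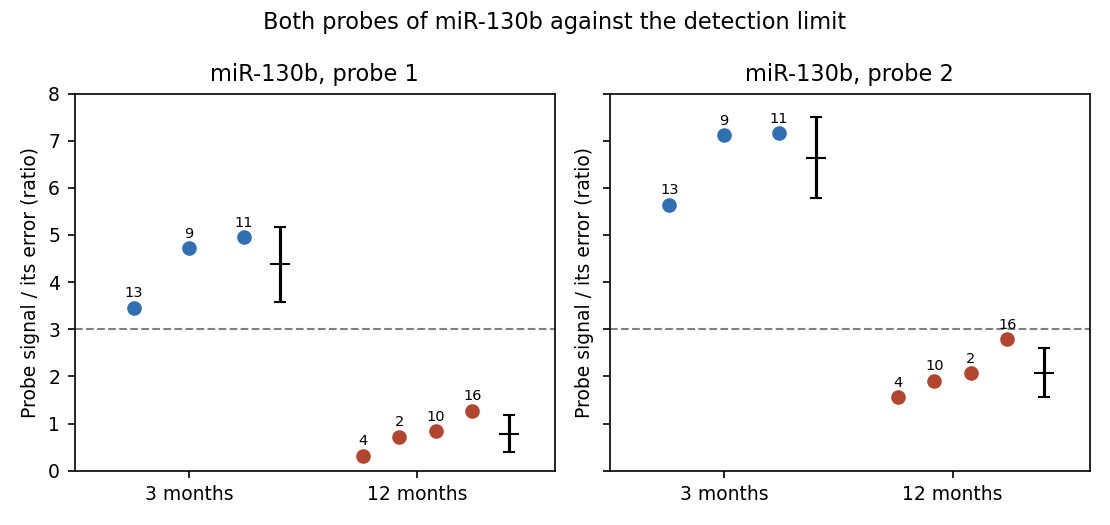
Ratio of signal to its error (y axis, no unit) for both probes of miR-130b by age, with 1 point per rat labelled by replicate and the mean ± SD beside it. The dashed line marks the detection limit of 3, below which every rat aged 12 months and above which every rat aged 3 months lies for both probes.

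The cluster neighbour miR-301b could not be compared between ages, because none of the 7 arrays detected it. Its total gene signal was -1.30, -2.29, -2.31 and 0.883 units in replicates 2, 4, 10 and 16 at 12 months and 0.278, -0.274 and 0.337 in replicates 9, 11 and 13 at 3 months. Values below 0 mean that the spots were dimmer than the background subtracted. None of its 4 probes exceeded 1.23 times its error on any array. Whether miR-301b differed with miR-130b, which shares its locus, was not detectable at this signal.

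miR-130a, which differs from miR-130b at 2 positions, was bright at both ages. Its total gene signal at 12 months was 1297 units in replicate 2, 1554 in replicate 4, 1457 in replicate 10 and 1414 in replicate 16. At 3 months it was 507 units in replicate 9, 937 in replicate 11 and 497 in replicate 13. Before normalisation every older rat lay above every younger one, with means of 1430 ± 106 (SD, n = 4) and 647 ± 251 units (SD, n = 3) and a log2 difference of 1.21 (two-sided exact permutation test over 35 splits, p = 0.0286, the smallest that 4 against 3 allows). It was 1 of the 131 of 272 miRNAs (48.2%) that were higher on every older array before normalisation, so this is no result about miR-130a.

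After normalisation miR-130a lay at 9.80, 10.29, 10.42 and 9.93 on the log2 scale in replicates 2, 4, 10 and 16 at 12 months. At 3 months it lay at 9.44, 10.05 and 9.55 in replicates 9, 11 and 13. The ages overlapped, through replicate 11 of the younger rats. The log2 difference was 0.43 with an SE of 0.22 (limma, Benjamini-Hochberg adjusted p = 0.323 over the 272 miRNAs; exact permutation p = 0.143), which did not pass the threshold of 0.05. Its 2 probes were alike, with log2 differences before normalisation of 1.23 and 1.19, both without overlap.

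miR-301a, which is encoded apart from the miR-301b/miR-130b pair, read 687, 616, 397 and 666 units in replicates 2, 4, 10 and 16 at 12 months. At 3 months it read 383, 448 and 322 units in replicates 9, 11 and 13. The ages overlapped because replicate 10 of the older rats lay below replicate 11 of the younger ones. The log2 difference before normalisation was 0.60 (exact permutation test, p = 0.0857), which is below the general shift of 0.79. Its probes gave 0.61 and 0.58, also with overlap.

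Normalised values of miR-301a were 9.01, 8.95, 8.44 and 8.95 for replicates 2, 4, 10 and 16 at 12 months and 9.01, 8.95 and 8.95 for replicates 9, 11 and 13 at 3 months. Apart from replicate 10, the rats of both ages were nearly level, and equal values arise because quantile normalisation gives arrays the same value at the same rank. The log2 difference was -0.13 with an SE of 0.17 (limma adjusted p = 0.776; exact permutation p = 0.857), and without replicate 10 it was 0. Adjusted over 5 exact tests, 2 each for miR-130a and miR-301a and 1 for the difference between them, the smallest exact permutation p was 0.143. Exact tests under other settings, such as within the rows of the slide, are not part of that adjustment.

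By the adjusted limma p, 4 of the 272 miRNAs (1.47%) passed 0.05, and 59 had an unadjusted p below 0.05. miR-130b was fitted along with the 272 and fell among the 4, but the family was chosen on its difference, so nothing is read from that. miR-130a and miR-301a, the members put to the test, were not among the 4. The median normalised difference over the 3 detected members, miR-130b included, was -0.13, beside 0.06 over all 272.

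**Figure D3:**
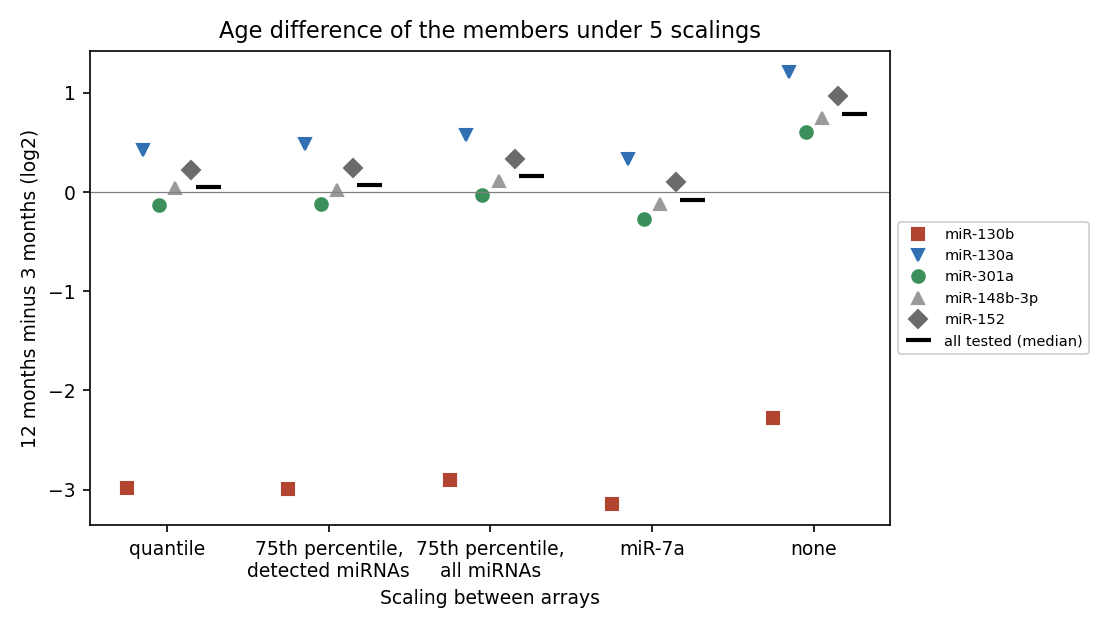
Difference of the mean log2 signal, 12 months minus 3 months (y axis), for the 3 detected members, for miR-148b-3p and miR-152, and for the median of all 272 tested miRNAs (black dash) under 5 scalings between arrays (x axis). miR-130b lies between -3.14 and -2.27 throughout, miR-130a above the median of all miRNAs and miR-301a below it.

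How arrays are scaled to each other moved all members together. miR-130a was 0.48 higher with the 75th percentile of the miRNAs detected on all arrays, 0.57 with that of all miRNAs and 0.34 with miR-7a as the reference, on the log2 scale, while the median of the tested miRNAs went from -0.08 to 0.16. It did not pass the adjusted limma threshold with any of these 3. With the 75th percentile of all miRNAs its ages no longer overlapped, where the median of the tested miRNAs was 0.16. miR-301a turned from -0.27 with miR-7a to 0.60 with no normalisation. With miR-7a the older rats were all lower in miR-301a, where the median was -0.08. The share of all miRNAs without overlap under these 2 scalings was not counted, so nothing is read from either. miR-130b stayed lower on every setting in the plot.

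Differences between members within an array do not depend on how arrays are scaled, and they were taken on log2 signals before normalisation. miR-130b minus the mean of miR-130a and miR-301a was -7.13, -7.88, -6.94 and -6.90 in replicates 2, 4, 10 and 16 at 12 months. It was -3.73, -4.39 and -3.98 in replicates 9, 11 and 13 at 3 months. The ages did not overlap, with means of -7.21 ± 0.46 (SD, n = 4) and -4.03 ± 0.33 (SD, n = 3) and a change of -3.18, again a description since miR-130b was chosen on its age difference. Against miR-130a alone the change was -3.48 and against miR-301a alone -2.88. These sizes rest on undetected signals of miR-130b at 12 months, and with those set to 3 times their error the 3 changes were -2.57, -2.87 and -2.26, again without overlap. Only the change of these differences with age is read, since the level of each depends on the brightness of the probes.

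miR-130a minus miR-301a, a pair in which neither member was chosen on its values, was 0.92, 1.34, 1.87 and 1.09 in replicates 2, 4, 10 and 16 at 12 months. It was 0.40, 1.06 and 0.62 in replicates 9, 11 and 13 at 3 months. The means were 1.30 ± 0.42 (SD, n = 4) and 0.70 ± 0.34 (SD, n = 3), a change of 0.61. The ages overlapped through replicate 2 of the older and replicate 11 of the younger rats, and the change did not pass the test (two-sided exact permutation test over 35 splits, p = 0.114).

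**Figure D4:**
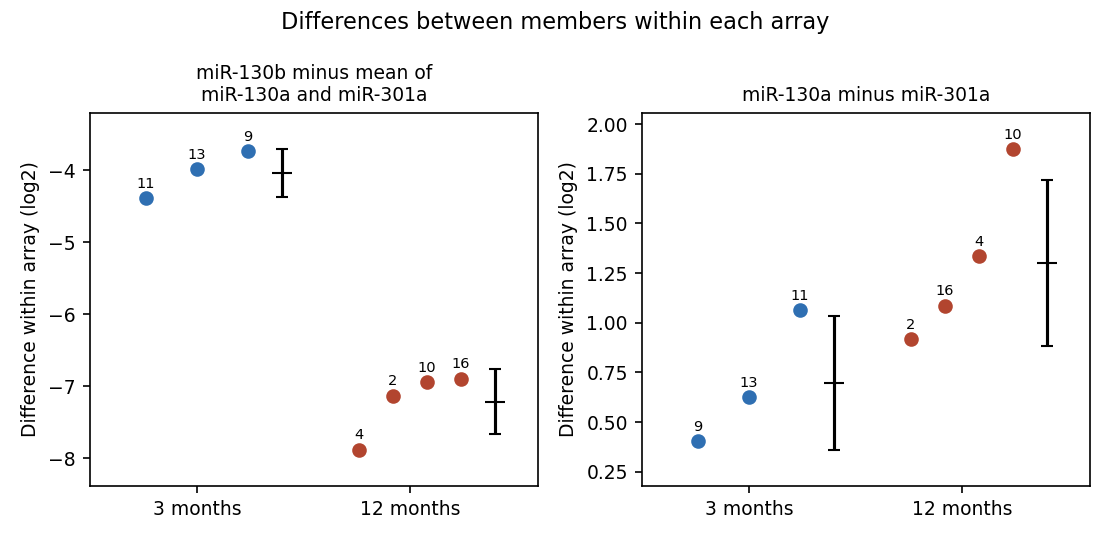
Log2 differences between members within each array before normalisation (y axis) by age, with 1 point per rat labelled by replicate and the mean ± SD beside it. On the left, miR-130b minus the mean of miR-130a and miR-301a lies from -7.88 to -6.90 at 12 months and from -4.39 to -3.73 at 3 months. On the right, miR-130a minus miR-301a overlaps between the ages.

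The rows of the slide were examined as a batch, since both ages lay in each, with 2 older rats and 1 younger rat in the first row and 2 of each in the second. Within the first and second rows miR-130b differed by -3.39 and -2.69 after normalisation, and its difference from the mean of miR-130a and miR-301a changed by -3.77 and -2.73. miR-130a differed by 0.60 and 0.37 after normalisation and miR-301a by -0.03 and -0.25. miR-130b, its difference from the mean of miR-130a and miR-301a, and miR-130a kept their direction in both rows, whereas miR-301a was nearly level in the first. miR-130a minus miR-301a changed by 0.72 and 0.64 within the rows and by 0.67 with the row as a block (exact permutation test within rows, p = 0.0556, the smallest its 18 splits allow).

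The opposite strands of the 4 members were on the array as miR-130a*, miR-130b*, miR-301a* and miR-301b*, and none was detected on any array. For miR-130b*, the strand processed from the same precursor as miR-130b, the total gene signal ran from -0.642 to 2.57 units at 12 months and from 1.48 to 3.399 at 3 months, and the ages overlapped. After normalisation it lay from 0 to 0.73 on the log2 scale at 12 months and from 1.23 to 1.86 at 3 months, without overlap. Those normalised values come from signals that no array told apart from background, and no age difference is read from them.

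miR-148b-3p and miR-152, with the seed letters shifted by 1 base, were detected on all 7 arrays, and neither passed the adjusted limma threshold. miR-148b-3p, which belongs to the miR-148 and miR-152 family, read 550 to 955 units at 12 months and 386 to 569 at 3 months, and its normalised log2 difference was 0.04 (limma adjusted p = 0.945). miR-152 read 360 to 602 units at 12 months and 237 to 331 at 3 months, and its normalised log2 difference was 0.22 (limma adjusted p = 0.565). Before normalisation miR-152 did not overlap between ages, with a difference of 0.97, and miR-148b-3p did, with 0.75. On that scale 131 of the 272 miRNAs (48.2%) were higher on every older array, and the median difference was 0.79. Nothing about miR-152 or miR-148b-3p is therefore read from these values. The median normalised difference of miR-148b-3p and miR-152 was 0.13, beside 0.06 over all 272. miR-148a, the remaining miRNA of the list, had no feature under that name on the array and so could not be analysed.

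Likeness was measured as Pearson's r of normalised log2 signals over the 7 arrays, both ages together, among the 272 miRNAs. The miRNAs most like miR-130b were miR-186 (r = 0.94), miR-3544 (0.90), miR-667 (0.90), miR-702-3p (0.87) and miR-181a (0.87). Since miR-130b varied mostly by age, a choice by this measure favours miRNAs lower at 12 months, and all 5 were, without overlap, with log2 differences from -1.12 to -0.27, and none passed the adjusted limma threshold (adjusted p from 0.0608 to 0.296). miR-130a was most like miR-195 (r = 0.94), miR-27a (0.92) and miR-450a (0.91). miR-301a was most like the endocrine miRNA miR-7a (r = 0.99), and then miR-328a (0.93) and miR-433 (0.91). For miRNA qPCR the study used U6 or miR-7 as the reference, without naming miR-7a. The normalised value of miR-7a was 14.81 on 6 arrays and 14.51 in replicate 10 of the older rats, so its likeness to miR-301a rests on that array. No miRNA was among the most like of more than 1 member.

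Markers of the cells that islet preparations hold were summed as normalised linear signals. The 4 endocrine miRNAs listed, with miR-375 and miR-7a among them, summed to 34801 to 41857 at 12 months and 41146 to 45628 at 3 months, and miR-184 was not detected on any array. The 3 acinar miRNAs (miR-217, miR-216a and miR-216b-5p) summed to 123 to 1376 at 12 months and 1211 to 2853 at 3 months, and had a median log2 difference of -2.11. The highest acinar sum at 12 months, 1376 in replicate 10, lay within the range of the younger rats. The 5 mesenchymal miRNAs ranged from 1912 to 2801 and from 1216 to 1918 (median 1.16), the 2 endothelial ones from 1623 to 2170 and from 1702 to 1826 (0.32), and the 2 erythroid ones from 121 to 229 and from 95.1 to 302 (-0.52), each overlapping between ages. The sum of the 4 immune miRNAs on the array, of 5 listed, was higher at 12 months without overlap, at 261 to 488 against 225 to 253 (median 0.62). Singly, the immune miR-142-3p (0.91) and miR-142-5p (1.31) were higher at 12 months without overlap, whereas miR-150 (0.33) and miR-223 (-0.05) overlapped. The mesenchymal miR-199a-3p (1.16), miR-199a-5p (1.39) and miR-214 (1.30) and the endothelial miR-126* (0.58) were also higher without overlap. miR-143 (0.38), miR-145 (0.86), miR-126 (0.07) and the other tested markers overlapped. The share of all tested miRNAs higher without overlap was not counted, so nothing is read from these. None of these markers passed the adjusted limma threshold. Their part in the differences of the members was not tested. In whole islets fewer cells of a type and less RNA per cell cannot be told apart.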

How the data were processed

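Islet miRNA arrays of 12-month-old (n = 4) and 3-month-old (n = 3) rats were analysed. The authors deposited the output of Agilent Feature Extraction (version 10.7.3.1 per the labels' processing notes) (1 per array), which holds linear intensities with the background subtracted and says which miRNAs were detected. The authors also deposited a series matrix of log2 values, quantile normalised according to the study's table notes, which was used as an alternative.

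The total gene signal of 677 rat miRNAs was set to 1 where lower, put on the log2 scale and quantile normalised. The 272 miRNAs that all arrays of 1 age or of both detected were fitted with limma 3.58.1 (lmFit and eBayes) in R 4.3.3, and p values were adjusted by Benjamini-Hochberg over all 272. Exact permutation tests were two-sided over 35 splits. The pipeline was tested on simulated data.

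The members and lists were chosen with earlier results of these data known. The miRNAs named are the members, the lists compared with them, those detected on all arrays of 1 age and none of the other, and the 5 (miR-130b) or 3 (miR-130a, miR-301a) with the highest correlation. Alternatives covered scaling, filter, floor, signal summary, background correction, test, slide row and each array left out. Normexp was run on the median spot signal with an offset of 16. The mRNA arrays and qPCR were not analysed here. RefSeq (GRCr8) gave sequences and neighbouring genes, because the array headers name an older assembly.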

Additional observations from a re-analysis of the deposited data

Results flagged for a closer look

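Of 12 measures of the members, miR-148b-3p and miR-152 at 12 months, 3 had 1 rat far from the others, and in each it was replicate 10. The gap to the nearest rat made up 0.896 of the range of the group for the normalised log2 signal of miR-301a, where replicate 10 lay at 8.44 and the others from 8.95 to 9.01. For miR-152 this share was 0.954 after normalisation (8.33 against 8.87 to 8.89) and 0.996 before it (8.49 against 9.23 in each of the others). Chance flags about 1 in 20 such groups, and the measures share arrays. The endocrine sum of replicate 10 was 34801, the lowest of the 7 arrays, and its acinar sum of 1376 the highest of its age. That endocrine sum includes miR-7a, whose normalised log2 value follows its rank and was 14.51 there against 14.81 on the other arrays. The part of both sums in these values was not tested. No measure of miR-130b or miR-130a was flagged by this criterion.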

How the results depend on the processing

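miR-130b was lower at 12 months under all 20 alternatives in which it was measured. Its difference from the mean of miR-130a and miR-301a changed in the same direction under all 20. Part of these settings could not differ from the main one. Filter and test left the age difference at -2.99, and filter and scaling of whole arrays by a factor left the within-array change at -3.18. Both describe the difference on which the family was chosen. The age difference of miR-130b was -2.27 with no normalisation, -0.74 with normexp and -1.70 in the deposited matrix. For the within-array change these were -1.31 with normexp and -1.88 in the matrix. Leaving out 1 array gave -3.13 to -2.73 and -3.35 to -2.96. miR-130a was higher under all 20 alternatives and passed the threshold under 1, no normalisation (1.21, limma adjusted p = 0.0114). Filter, floor and test left its value at 0.43 and changed only its p. miR-301a turned to 0.60 with no normalisation (limma adjusted p = 0.0701), and leaving out 1 array gave -0.19 to 0, the last without 12-month-old replicate 10. miR-130a minus miR-301a stayed positive under all 20 (0.42 to 0.79). Scaling of whole arrays by a factor, filter and floor could not alter this difference and repeated 0.61. Over the alternatives the exact permutation p ran from 0.0556 to 0.333. With 3 against 3 arrays that test cannot go below 0.1. An added alternative, chosen after seeing the data, took the within-array changes on quantile-normalised signals (-3.14 and 0.56). Another set miR-130b to 3 times its error at 12 months and gave -2.34 for its age difference and -2.57 for the within-array change.

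Of all miRNAs tested, 4 passed the limma threshold, against 21 when scaled to the 75th percentile of the miRNAs that all arrays detected (4 higher), 10 with that of all miRNAs (8 higher), 15 with miR-7a (3 higher), 171 with no normalisation (169 higher), 1 with miRNAs detected on all arrays, 2 with normexp and 8 in the matrix (5 higher). Leaving out 1 array gave 4 to 10, the last without 12-month-old replicate 10. The methods' t-test gave 49 at an unadjusted p below 0.05 and 3 after Benjamini-Hochberg. The filter for detection on all arrays leaves no value for miR-130b. No paired analysis was possible because the ages share no replicate number. The causes of these changes were not tested. Signal over background limits miR-130b at 12 months and miR-301b at both ages.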
